A study of Mus musculus with 4 samples.

Results

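The levels of 10 transcription factors of mesenchymal cells, Tbx18, Tbx15, Nr2f2, Nr2f1, Sox8, Ebf1, Ebf2, Klf4, Pou3f4 and Foxc1, were described in basal cells and fibrocytes of the mouse stria vascularis (SV), the epithelium of the cochlear lateral wall that generates the endocochlear potential. The factors were taken by symbol. The set was chosen by levels measured earlier in these same libraries, which had placed most of them in basal cells, so their levels here are given as a description, without a test. All 10 symbols were found, each on 1 row, in the gene list of the cell libraries and in the longer list of the nuclei.

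SV was taken from CBA/J mice at postnatal day 30, with no treatment or mutation. The 3 suspensions of cells, called captures 1, 2 and 3, gave single-cell RNA-Seq (scRNA-Seq) and 1 suspension of nuclei gave single-nucleus RNA-Seq (snRNA-Seq). Each suspension pooled several mice, so the capture is the replicate (n = 3) and the nuclei, as 1 library, have no replicate and allow no test. After barcodes with few genes and putative doublets were left out, 377, 1314 and 1461 cells and 9723 nuclei remained.

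Basal cells are flat cells joined by tight junctions, which separate the SV from the spiral ligament on its lateral side. Fibrocytes fill that ligament and are connective tissue cells that recycle potassium toward the SV. Both are held to descend from the otic mesenchyme, the embryonic connective tissue around the inner ear, whereas marginal cells are epithelial and intermediate cells derive from the neural crest. The 10 factors are DNA-binding proteins known from mesenchyme elsewhere, and Pou3f4 and Tbx18 are known to be needed by the otic mesenchyme for hearing in the mouse.

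Groups were checked against Cldn11, the claudin of basal cell tight junctions, and Tjp1, a junction scaffold, for basal cells, and against Slc4a11, a membrane transporter of fibrocytes, and Dcn, the matrix proteoglycan decorin, for fibrocytes. The 157 basal-like cells (24, 73 and 60 in the 3 captures) held Cldn11 at 3272 CPM (the unique molecular identifiers, or UMIs, of a gene as counts scaled to a common total of all UMIs of the group) and Dcn at 1.9 CPM. Fibrocyte markers fell into 2 groups, which are kept apart. The first, called fibrocyte-like, had Slc4a11 with Otos, Coch and Car3 as its leading genes, and comprised 9 cells, none from capture 1, and 49 nuclei. The second was led by Dcn and is called Dcn-led. It comprised 36 cells (2, 18 and 16) and 88 nuclei. Dcn-led cells went against a plain fibrocyte label, since they held Dcn at 4196 CPM but Slc4a11 at 4.7 CPM, together with the basal markers Cldn11 at 2163 CPM and Tjp1 at 307 CPM. Tjp1 did not set these cells apart from basal-like cells, whose sub-groups held it at 143 to 343 CPM. Endothelial Emcn was at 358 CPM in Dcn-led cells, whereas endothelial Pecam1 was at 0. Dcn-led nuclei had another makeup, with Cldn11 at 376 CPM, Slc4a11 at 65.6 CPM and the osteoblast gene Runx2 at 614 CPM, a gene at 0 in Dcn-led cells. Cells and nuclei of this name are therefore not matched populations. The 623 basal-like nuclei held Cldn11 at 846 CPM and Dcn at 6.6 CPM. Tjp1 was at 254 CPM in 601 of these nuclei and at 129 to 294 CPM in sub-groups of Dcn-led nuclei.

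Depth differed between the datasets, with medians of 5054, 4938 and 3878 UMIs per barcode in the 3 captures and 1561 in the nuclei. A median of 38.6% to 45.4% of the UMIs of a kept cell were mitochondrial, against 8.23% of those of a kept nucleus. Pairs of libraries shared between 0 and 32 barcodes. Basal-like barcodes also carried UMIs of marginal and intermediate cell markers. The marginal markers summed to 2438 CPM in basal-like cells and 5069 CPM in basal-like nuclei. The intermediate markers summed to 8701 CPM in basal-like cells, against 8164 CPM for the basal markers, and to 4585 CPM in basal-like nuclei, against 2185 CPM. Their part in the levels of the factors was not tested.

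To be counted as higher, a factor needed at least 5 UMIs in the basal-like barcodes of each library. Of the factors 7, namely Tbx18, Sox8, Ebf1, Ebf2, Klf4, Pou3f4 and Foxc1, were at least 2 times higher in basal-like cells than in each of the marginal-, intermediate- and spindle/root-like cells in all 3 captures. The same held for 2.30% of the 8830 genes at 10 CPM or more in basal-like cells, a share that describes the background and not the choice of the factors. Nr2f2 met the limit in captures 1 and 2 but not in capture 3, where basal-like cells were 1.65 times higher than spindle/root-like cells (95% interval 0.926 to 3.16). In nuclei 8 factors met it, those 7 and Nr2f2, against 3.98% of 8847 genes. Tbx15 and Nr2f1 met it in neither dataset. Some calls in cells rest on a 0 in few spindle/root-like cells. The 5 of capture 1 had no UMI of Sox8 or Ebf2, and with 3 counts put in as the floor the ratios were 0.657 and 0.949. For Ebf2 in capture 3 the ratio so floored was 1.11. A 2-fold difference in every capture is therefore not shown for Sox8 and Ebf2. Ebf1 in capture 2 had a ratio of 2.63 (1.74 to 4.13) to spindle/root-like cells. Barcodes of clusters left unnamed, 52.2% of kept cells and 38.8% of kept nuclei, were not among the types compared. Intervals are exact binomial for ratios and shares and exact Poisson for CPM, and they cover counting error only.

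**Figure D1:**
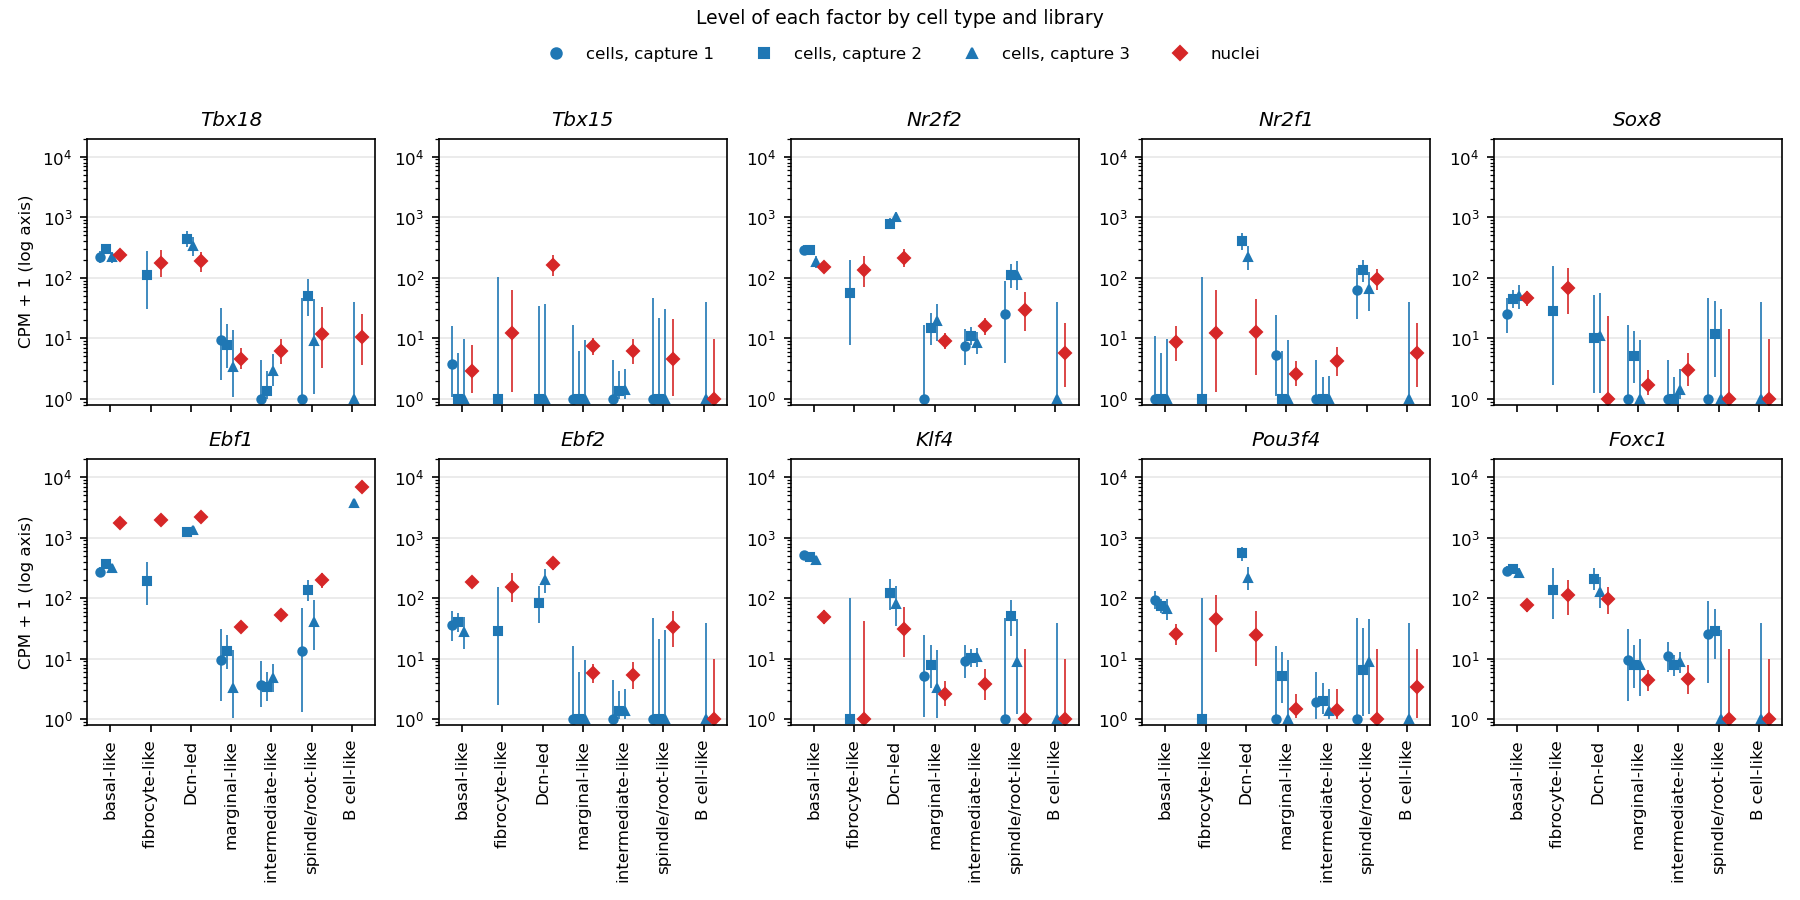
Level of each factor in CPM + 1 on a log axis, by cell type. Blue circles, squares and triangles are captures 1, 2 and 3 of cells (types with at least 5 cells in the capture), red diamonds are nuclei, and bars are exact 95% Poisson intervals. The basal-like levels of Tbx18, Ebf1, Klf4 and Foxc1 lay above those of marginal- and intermediate-like barcodes in every library, Tbx15 stood out only in Dcn-led nuclei, and Ebf1 was highest in B cell-like barcodes.

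Tbx18 and Tbx15 are T-box factors of the same subfamily, which can bind the same DNA half-site and repress transcription. Tbx18 (chromosome 9, 87702800 to 87731260, minus strand, build GRCm38) was at 220.4, 300.5 and 217 CPM in the basal-like cells of captures 1, 2 and 3, a mean of 246 ± 47.3 (SD, n = 3). Dcn-led cells held it at 438 CPM in capture 2 and 335 CPM in capture 3, above every basal-like value. The 9 fibrocyte-like cells had 4 UMIs of Tbx18, all in a single cell. In nuclei the order was another one, with 235 CPM (206 to 266) in basal-like, 185 CPM (126 to 262) in Dcn-led and 176 CPM (101 to 286) in fibrocyte-like nuclei, and these 3 intervals overlapped. Marginal-like nuclei were at 3.6 CPM and intermediate-like nuclei at 5.2 CPM. Tbx18 was thus seen in basal-like and Dcn-led barcodes of both datasets and in fibrocyte-like nuclei.

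Tbx15 (chromosome 3, 99240381 to 99354259, plus strand) was nearly missing from cells, with 4 UMIs among all kept cells and 1 of these in a basal-like cell. Basal-like nuclei held 2 UMIs (1.9 CPM), against 27 UMIs (161 CPM, interval 106 to 234) in Dcn-led nuclei and 1 UMI in fibrocyte-like nuclei. Within the Dcn-led nuclei, 23 of the 27 UMIs lay in a sub-group of 21 nuclei led by Mgp, Slc47a1 and Penk, at 530 CPM (336 to 795). A Runx2- and Col1a1-led sub-group of 36 nuclei held the other 4 UMIs, and a Tenm2- and Itga8-led sub-group of 31 nuclei held none. The sub-group with the highest Tbx15 had Tbx18 at 69 CPM (3 UMIs, 14.3 to 202), its lowest level among the 3 Dcn-led sub-groups. This interval overlapped those of the Runx2-led (172 CPM, 88.7 to 300) and Tenm2-led (294 CPM, 168 to 478) sub-groups. An order of Tbx18 among the 3 is therefore not drawn.

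Nr2f2 and Nr2f1 (COUP-TFII and COUP-TFI) are orphan nuclear receptors that act mostly as repressors. Nr2f2 (chromosome 7, 70351944 to 70366735, minus strand) was at 288, 283 and 183 CPM in basal-like cells, with a mean of 251 ± 58.8 (SD, n = 3). Dcn-led cells were higher, at 785 CPM in capture 2 and 1024 CPM in capture 3, and spindle/root-like cells reached 109.8 and 111 CPM in these captures. Nr2f2 was therefore not limited to the basal side. Basal-like nuclei held 148 CPM (125 to 173), fibrocyte-like nuclei 132 CPM (68.2 to 231) and Dcn-led nuclei 215 CPM (150.3 to 297), against 8.2 CPM in marginal-like nuclei.

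Nr2f1 (chromosome 13, 78188973 to 78199757, minus strand) had no UMI in the 157 basal-like cells, and the interval reached 2.35 CPM. In Dcn-led cells it was at 402 CPM in capture 2 and 217 CPM in capture 3, and 69.4% of the 36 cells had at least 1 UMI, against 0.8% of marginal-like cells (median depths of 3659 and 11496 UMIs). Spindle/root-like cells held it at 61.4, 132 and 63.5 CPM. The receptors thus differed within these libraries, Nr2f2 being in both basal-like and Dcn-led cells and Nr2f1 in Dcn-led but not detectably in basal-like cells. Nuclei did not repeat the Dcn-led level, with 2 UMIs (11.9 CPM) in Dcn-led and 8 UMIs (7.6 CPM) in basal-like nuclei, while spindle/root-like nuclei had 93.6 CPM (61.1 to 137) and Reissner membrane-like nuclei 63.9 CPM (29.2 to 121).

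Sox8, a SoxE factor of the family of Sox9 and Sox10, was low in all libraries. It lies on chromosome 17 (25565892 to 25570686, minus strand). Basal-like cells held 24.2, 43.5 and 48.2 CPM, a mean of 38.6 ± 12.7 (SD, n = 3). Dcn-led cells had 1 UMI in capture 2 (9.1 CPM) and 1 in capture 3 (9.8 CPM). In nuclei Sox8 was at 44.5 CPM (32.7 to 59.2) in basal-like and 66.0 CPM (24.2 to 144) in fibrocyte-like nuclei. The 88 Dcn-led nuclei had no UMI of it. The ratio of basal-like to Dcn-led nuclei was 2.49 with 3 counts put in as the floor, and its exact lower bound was 1.94. Sox8 was thus shared with the Slc4a11-led and not with the Dcn-led nuclei.

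Ebf1 and Ebf2 are helix-loop-helix factors of the EBF family, Ebf1 being known for B cell fate and Ebf2 for brown fat and bone-forming cells. Ebf1 (chromosome 11, 44617317 to 45008091, plus strand) was at 274, 361 and 309 CPM in basal-like cells, with a mean of 314.5 ± 43.5 (SD, n = 3). Dcn-led cells held it at 1251 CPM in capture 2 and 1319 CPM in capture 3, 3.47 and 4.27 times the basal-like level of the same capture. B cell-like cells were at 3237 CPM. Both differences were smaller in nuclei. Basal-like nuclei held 1733 CPM (1655 to 1814), fibrocyte-like nuclei 1958 CPM (1681 to 2268), Dcn-led nuclei 2164 CPM (1947 to 2399) and B cell-like nuclei 6858 CPM (6610 to 7113). In nuclei 85.7% of basal-like barcodes had at least 1 UMI of Ebf1, against 5.15% of marginal-like barcodes of like depth (medians of 1508 and 1394.5 UMIs).

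Ebf2 (chromosome 14, 67233292 to 67430918, plus strand) followed the same order at lower levels in cells, with 34.9, 39.6 and 26.5 CPM in basal-like cells (mean 33.7 ± 6.6 SD, n = 3) and 82.2 and 197 CPM in Dcn-led cells of captures 2 and 3. No B cell-like nucleus held it, which sets it apart from Ebf1. Basal-like nuclei were at 185 CPM (160 to 212), fibrocyte-like nuclei at 154 CPM (84.2 to 258) and Dcn-led nuclei at 376 CPM (289 to 481). Within the Dcn-led nuclei, Ebf2 was at 643 CPM (448 to 894) in the Tenm2-led, 372 CPM (243 to 545) in the Runx2-led and 46 CPM (5.6 to 166) in the Mgp-led sub-group.

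Klf4, a zinc finger factor known from barrier epithelia and from the reprogramming of cells to pluripotency, is also an early response gene. Klf4 (chromosome 4, 55527143 to 55532466, minus strand) was at 508, 471 and 419.6 CPM in basal-like cells, with a mean of 466 ± 44.4 (SD, n = 3). Dcn-led cells held it at 119 and 78.8 CPM in captures 2 and 3, and the 9 fibrocyte-like cells had no UMI of it. After each barcode was thinned to 1000 UMIs, 31.2% of basal-like and 0.8% of marginal-like cells had a UMI of Klf4, against 89.2% and 4.8% before (median depths of 9319 and 11496 UMIs). In nuclei the basal-like and Dcn-led levels of Klf4 were lower, at 48.3 CPM (35.9 to 63.5) and 29.8 CPM (9.68 to 69.6). Fibrocyte-like nuclei were at 0, as the cells were. The 90 nuclei named macrophage-like were at 84.5 CPM (54.1 to 126), whereas the 19 macrophage-like cells had no UMI of it.

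As Klf4 is an early response gene, 10 immediate-early genes such as Fos, Jun and Egr1 were summed beside it. They stood at 357.5, 284 and 203 CPM in basal-like cells of captures 1, 2 and 3, and at 302, 237 and 217 CPM in marginal-like cells, where Klf4 was at 4.2, 6.9 and 2.3 CPM. Spindle/root-like cells were above both, at 515, 417 and 547.5 CPM, with Klf4 at 0, 49.4 and 7.9 CPM. Macrophage-like cells had more still, at 1133 CPM in capture 2 and 1643 CPM in capture 3, and held no UMI of Klf4. The immediate-early sum thus had no common order between basal- and marginal-like cells over the captures, whereas Klf4 was higher in basal-like cells of each. Over 4 sub-groups of basal-like cells both had the same order, with an immediate-early sum of 388 CPM beside 683 CPM of Klf4, 319 beside 669 CPM, 275 beside 465 CPM and 193 beside 270.5 CPM. Its part in the level of Klf4 was not tested.

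Pou3f4 and Foxc1 are the POU-domain and forkhead members, both known from mesenchyme around the otic vesicle or the head. Pou3f4 (chromosome X, 110814280 to 110817207, plus strand) was at 94.1, 72.9 and 65.1 CPM in basal-like cells, with a mean of 77.4 ± 14.99 (SD, n = 3). Dcn-led cells held it at 548 and 217 CPM in captures 2 and 3, far above the basal-like range but with the 2 captures wide apart. In nuclei the values were small and close, at 24.6 CPM (16.1 to 36.1) in basal-like, 23.8 CPM (6.5 to 61.1) in Dcn-led and 44.0 CPM (12.0 to 113) in fibrocyte-like nuclei. Marginal- and intermediate-like nuclei were at 0.45 and 0.40 CPM, so Pou3f4 was low but marked the same groups.

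Foxc1 (chromosome 13, 31806633 to 31812476, plus strand) was at 282, 298 and 258 CPM in basal-like cells, a mean of 279 ± 20.1 (SD, n = 3). Dcn-led cells were lower, at 210 and 128 CPM in captures 2 and 3, and the 9 fibrocyte-like cells had 9 UMIs (153 CPM). In nuclei the basal-like level of 74.8 CPM (59.2 to 93.2) lay within the intervals of Dcn-led nuclei (95.4 CPM, 54.5 to 155) and fibrocyte-like nuclei (110 CPM, 52.8 to 202). Foxc1 was thus seen in basal-like, fibrocyte-like and Dcn-led barcodes of both datasets.

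In captures 2 and 3, those with at least 5 Dcn-led cells, Dcn-led cells were higher than basal-like cells for Tbx18, Nr2f2, Nr2f1, Ebf1, Ebf2 and Pou3f4, and basal-like cells were higher for Sox8, Klf4 and Foxc1. With captures summed, the ratio of basal-like to Dcn-led cells ran from 0.194 (0.146 to 0.260) for Pou3f4 to 4.77 (3.10 to 7.75) for Klf4. Nr2f1 had 68 UMIs in Dcn-led and none in basal-like cells, and Tbx15 could not be compared.

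In nuclei each factor was placed by whether it was at least 2 times higher, with at least 5 UMIs, than in the marginal-, intermediate- and spindle/root-like nuclei together. With fibrocyte-like and Dcn-led nuclei taken as a single fibrocyte side, 8 factors were raised on both sides, Tbx15 on the fibrocyte side and Nr2f1 on neither. Among all 10503 genes at 10 CPM or more on a side, 4.24% were raised on both sides, 3.23% on the basal side, 10.2% on the fibrocyte side and 82.3% on neither. Of the 8 shared factors, Tbx18 (ratio of basal to fibrocyte side 1.29, 0.942 to 1.80), Nr2f2 (0.795, 0.572 to 1.12) and Ebf1 (0.828, 0.752 to 0.914) lay within 2-fold. Ebf2 was higher on the fibrocyte side, at a ratio of 0.620 (0.474 to 0.818), and Klf4 on the basal side, at 2.50 (1.00 to 8.02). For Ebf2 the difference came from the Dcn-led nuclei, at a ratio of 0.491 (0.368 to 0.664). Fibrocyte-like nuclei held Ebf2 at 154 CPM, against 185 CPM in basal-like nuclei. The interval of the ratio of basal-like to fibrocyte-like nuclei, 0.697 to 2.23, held both equality and a 2-fold difference. The intervals of Sox8, Pou3f4 and Foxc1 held both equality and a 2-fold difference. With either group alone, 6 factors were shared. Tbx15 stayed on the fibrocyte side with the Dcn-led nuclei alone. With the fibrocyte-like nuclei alone, which held 1 UMI of it, Tbx15 was on neither side. Klf4 and Pou3f4 were placed as basal against the fibrocyte-like nuclei alone, in which they had 0 and 4 UMIs. Sox8 and Pou3f4 were so placed against the Dcn-led nuclei alone. Pou3f4 had 4 UMIs in each of these groups, under the limit of 5, so its place gives no order of levels. Its level was 44.0 CPM in fibrocyte-like, 23.85 CPM in Dcn-led and 24.6 CPM in basal-like nuclei.

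**Figure D2:**
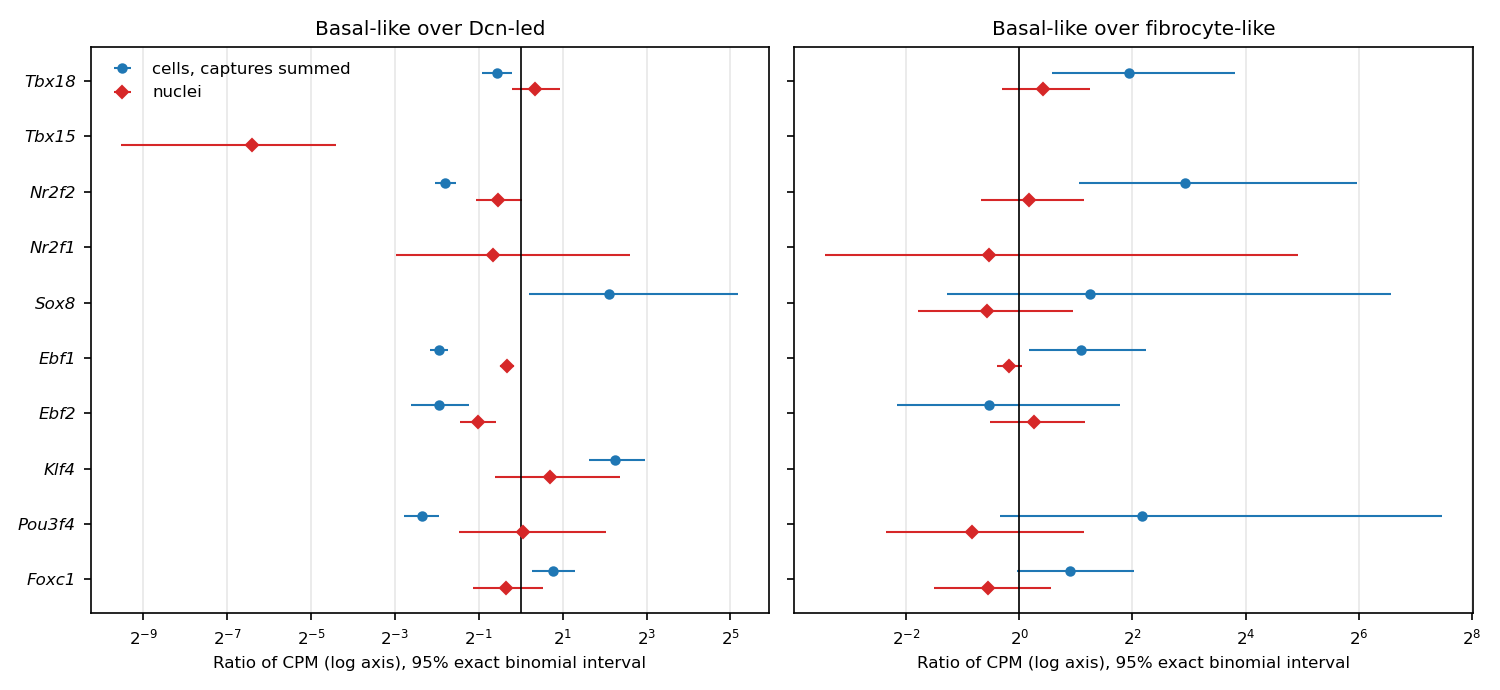
Ratio of CPM in basal-like barcodes to Dcn-led (left) and fibrocyte-like (right) barcodes, on log axes, with exact 95% binomial intervals. Blue circles are cells with captures summed, red diamonds are nuclei, and a factor with no UMI in a group or under 5 UMIs in all has no point there. Against Dcn-led barcodes, cells ran from 0.194 for Pou3f4 to 4.77 for Klf4, whereas nuclei lay near 1 for most factors and at 0.0118 for Tbx15.

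Basal-like cells were not uniform. Within 4 sub-groups, found without the 10 factors among the variable genes, the highest level was 2.5 (Klf4) to 6.8 (Sox8) times the lowest for the 8 factors present. A sub-group of 17 cells led by Ucma, Cytl1 and Cdkn1c had the highest Sox8 (152 CPM), Nr2f2 (502 CPM), Pou3f4 (167 CPM), Ebf1 and Ebf2. Sox8 rested on 10 UMIs there and Ebf2 on 4. The lowest level of each of the 8 factors lay in a sub-group of 48 cells with Col27a1 and Actn1 as leading genes, in which intermediate markers summed to 14620 CPM. Klf4 was at 270.5 CPM there, against 683 CPM in a Ctxn3- and Ackr3-led sub-group of 48 cells (basal markers 11350 CPM and intermediate markers 2993 CPM). For Sox8, Nr2f2, Pou3f4, Ebf1 and Ebf2 the intervals of the Ctxn3- and Ackr3-led sub-group overlapped those of the 17 cells. When the basal-like barcodes richer in intermediate than in basal markers were left out (65 of 157 cells and 299 of 623 nuclei), Tbx18 went from 259.5 to 336 CPM, Klf4 from 466 to 614 CPM and Ebf1 from 326 to 489 CPM in the cells summed over captures. Nr2f2 then met the 2-fold limit in every capture, which made 8 factors. Barcodes were left out on the basal side alone and the types compared were not filtered, so this count is no separate support.

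**Figure D3:**
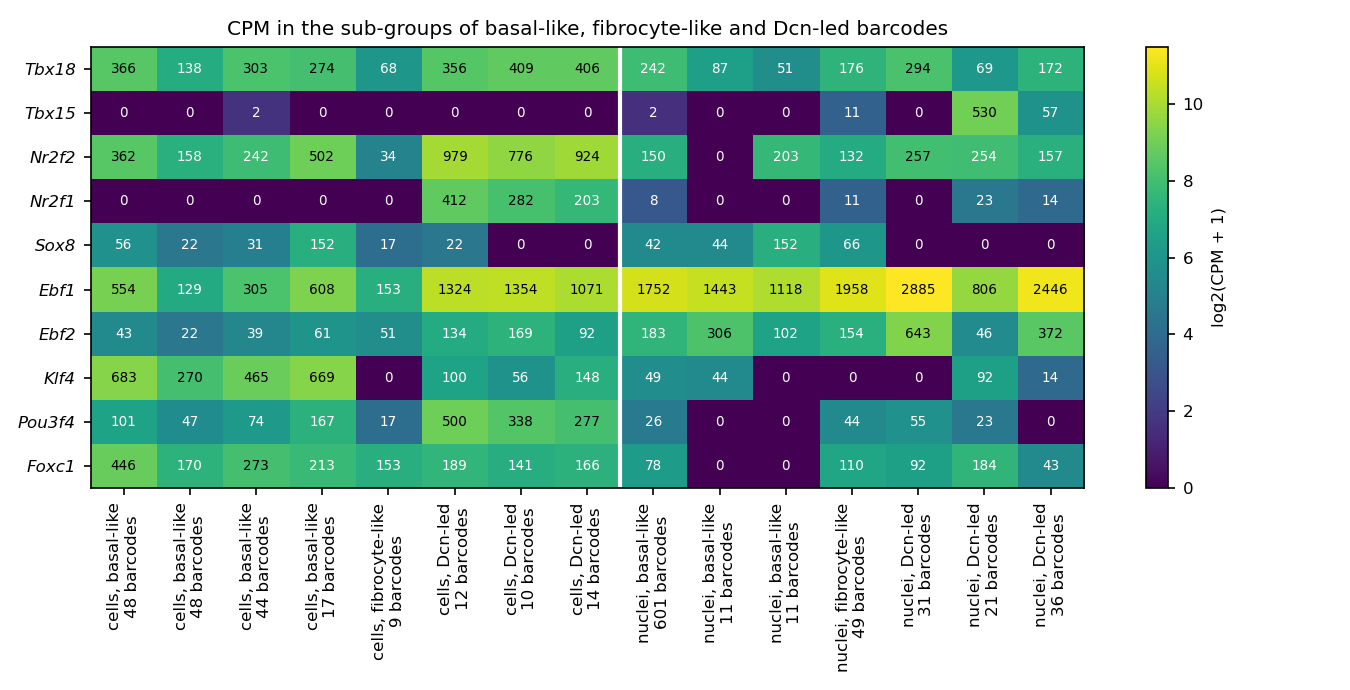
Heat map of the 10 factors (rows) in sub-groups of basal-like, fibrocyte-like and Dcn-led barcodes (columns, cells left of the white line and nuclei right of it). Colour is log2(CPM + 1) and each cell of the map prints the CPM. Nr2f1 was seen in all 3 Dcn-led sub-groups of cells and in no basal-like sub-group of cells, and Tbx15 at 530 CPM in 1 sub-group of 21 Dcn-led nuclei.

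Some barcodes held more than 1 of the factors, and whether these were more than the shares of single factors give was not tested. At 1000 UMIs per barcode, 70.1% of basal-like cells, 86.1% of Dcn-led cells and 22.2% of the 9 fibrocyte-like cells held at least 1 of the 10 factors, against 2.4% of marginal-like and 2.14% of intermediate-like cells. Spindle/root-like cells were at 17.5%. At least 2 were seen in 43.3% of basal-like and 72.2% of Dcn-led cells and in none of the 125 marginal-like cells. For at least 1 factor, nuclei gave 85.4% for basal-like, 87.2% for Dcn-led and 71.7% for fibrocyte-like barcodes. Marginal-like nuclei gave 6.83% and spindle/root-like nuclei 14.9%. Ebf1 by itself was in 75.75% of the thinned basal-like nuclei. At least 2 factors were in 44.0% of basal-like, 44.2% of Dcn-led and 43.5% of fibrocyte-like nuclei, against 0.236% of marginal-like nuclei. Without thinning, the median basal-like cell held 5 of the 10 factors and the median basal-like nucleus 2.

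Grouping by the 4 marker genes alone, without clusters, moved the levels of 5 of the 10 factors in cells by more than the spread between captures and of 6 in nuclei by more than their interval. The basal gate took barcodes with at least 2 UMIs of Cldn11, at least 1 of Tjp1 and more of these than of Slc4a11 and Dcn, and held 25, 79 and 48 cells. Of these 76.3% were basal-like and 13.2% marginal-like. The fibrocyte gate took barcodes with at least 2 UMIs of Slc4a11 and Dcn and more of these than of the basal pair, and held 1, 22 and 18 cells, 73.2% of them Dcn-led. Capture 1 was left out on that side. Klf4 was at 422, 357 and 352 CPM in the basal gate, against 83.5 and 65.7 CPM in the fibrocyte gate of captures 2 and 3 and 12.5 to 21.2 CPM in the rest. Nr2f1 was at 0, 1.1 and 2.4 CPM in the basal gate and at 299 and 172 CPM in the fibrocyte gate. Ebf1 was at 215, 279 and 261.5 CPM in the basal gate and at 905 and 1092 CPM in the fibrocyte gate. For these 3 factors the gates had the order of basal-like and Dcn-led cells, which make up most of the gates. The order is therefore no independent check. On the log2 scale of the edgeR fit, the basal gate was lower than the fibrocyte gate for Pou3f4 (-2.55), Ebf2 (-2.06), Nr2f2 (-1.81) and Tbx18 (-0.515). Sox8 was higher (1.55 ± 0.88 SE), and Foxc1 was nearly level (0.134 ± 0.242 SE).

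Other factors, which the choice of the 10 did not include, were then tested between the gates. The list of these factors was also drawn up with earlier results of these data known, so the shares called among them are no support for it. Of 69 listed genes, 24 relatives of the 10 factors and 45 other factors known from mesenchyme or fibroblasts, 37 passed the filter on low counts. Each gate was compared with the rest, the cells in neither gate. In the basal gate 15 of the 37 were higher and 2 lower (edgeR quasi-likelihood test on sums per capture, adjusted p under 0.05), where 10.8% of 7739 genes were higher and 12.4% lower. A gene could pass the filter through the gate in which it was high, so the share among those that passed is no support for the list. Without the filter 14 of 57 listed genes were higher and 3 lower, and 903 of 16880 genes were higher. In the fibrocyte gate 20 of the 37 were higher (13.7% of all genes were) and 6 lower (13.9% were), with 13 called higher without capture 2 and 13 without capture 3. Of these, 12 were higher in both gates. The shares of all genes higher in both gates or in a single gate are not given here, so counts of this kind are a description.

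Among relatives, Ebf3, the third EBF factor, was at 31.7, 20.1 and 22.0 CPM in the basal gate and at most 1.3 CPM in the rest (log2 fold change 5.39 ± 0.63 SE, edgeR adjusted p = 1.94e-07), and it also rose in the fibrocyte gate, though not without capture 2. Pou3f3, a POU-domain relative of Pou3f4, was at 181, 194 and 112 CPM in the basal gate, against 2.2, 5.2 and 4.4 CPM in the rest (4.68 ± 0.21, edgeR adjusted p = 7.82e-16). Pou3f3 rose in the fibrocyte gate as well, but it is listed at 0 in every gate of the nuclei, whose gene list is another one. Sox9, a SoxE factor of cartilage and many progenitors, rose by 3.15 in the basal gate (edgeR adjusted p = 3.03e-16) and by 1.17 in the fibrocyte gate (edgeR adjusted p = 0.00406), and the basal gate was the higher of the pair by 1.98 (edgeR adjusted p = 5.56e-07). Sox10, the SoxE factor of neural crest cells, and Tbx2 were the 2 that fell in the basal gate, by 0.94 and 1.17 on the log2 scale. The T-box factor Tbx1 rose by 1.44. Klf3 (1.38) and Klf5 (4.09) rose in the basal gate and did not pass the test in the fibrocyte gate. Klf3 was also higher in the basal than in the fibrocyte gate (1.34, edgeR adjusted p = 0.00166), whereas for Klf5 that difference was not called.

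Of the other mesenchymal factors, Twist1, a helix-loop-helix factor of mesenchyme and epithelial-to-mesenchymal transition, was at 31.7, 20.1 and 22.0 CPM in the basal gate and at most 0.55 CPM in the rest (5.61 ± 0.67, edgeR adjusted p = 2.24e-07). Its rise in the fibrocyte gate rested on 4 UMIs of capture 3, and the log2 fold change there was -1.31 without that capture. Snai1, a zinc finger repressor of epithelial genes, rose by 4.62 and the homeobox factor Prrx2 by 4.43 in the basal gate. Six2 (2.48) and Nfix (1.85) rose there too, Six2 on 2, 5 and 8 UMIs, so that it no longer passed in either gate without capture 3. These 5 were also higher in the fibrocyte gate than in the rest.

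Other factors were called higher in the fibrocyte gate, which was mostly Dcn-led cells, and not in the basal gate. Prrx1, a homeobox factor of fibroblasts, was at 139 and 172 CPM in the fibrocyte gate of captures 2 and 3 and at 0, 5.3 and 2.4 CPM in the basal gate, and the gates differed (edgeR adjusted p = 3.14e-07). Osr1, an odd-skipped zinc finger factor, was at 160 and 98.5 CPM in the fibrocyte gate and at 2.4, 1.1 and 2.4 CPM in the basal gate (edgeR adjusted p of the difference 2.9e-07). Its relative Osr2 had 11 and 22 UMIs in the fibrocyte gate and none in the basal gate, and the forkhead factor Foxp2 had 4 and 9 UMIs against 0, 0 and 2. Foxp2, Klf2, Klf7, Osr1, Osr2, Prrx1, Tcf4 and Zeb2 were called higher in the fibrocyte gate and not in the basal gate. Klf3, Klf5 and Nfia were of the opposite kind. The share of all genes called in a single gate is not given, so these names are a description. The fibrocyte gate had fewer cells, and only captures 2 and 3, so a missing call there says less than in the basal gate. In the test between the gates themselves Klf7 (edgeR adjusted p = 0.0973) and Klf5 (edgeR adjusted p = 0.436) were not called. The other 9 of the genes named here were, with an edgeR adjusted p of at most 0.00174. Between the gates 9 of the 37 were higher in the basal gate (13.2% of all genes were) and 9 in the fibrocyte gate (13.0%), the latter 5 without capture 3.

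**Figure D4:**
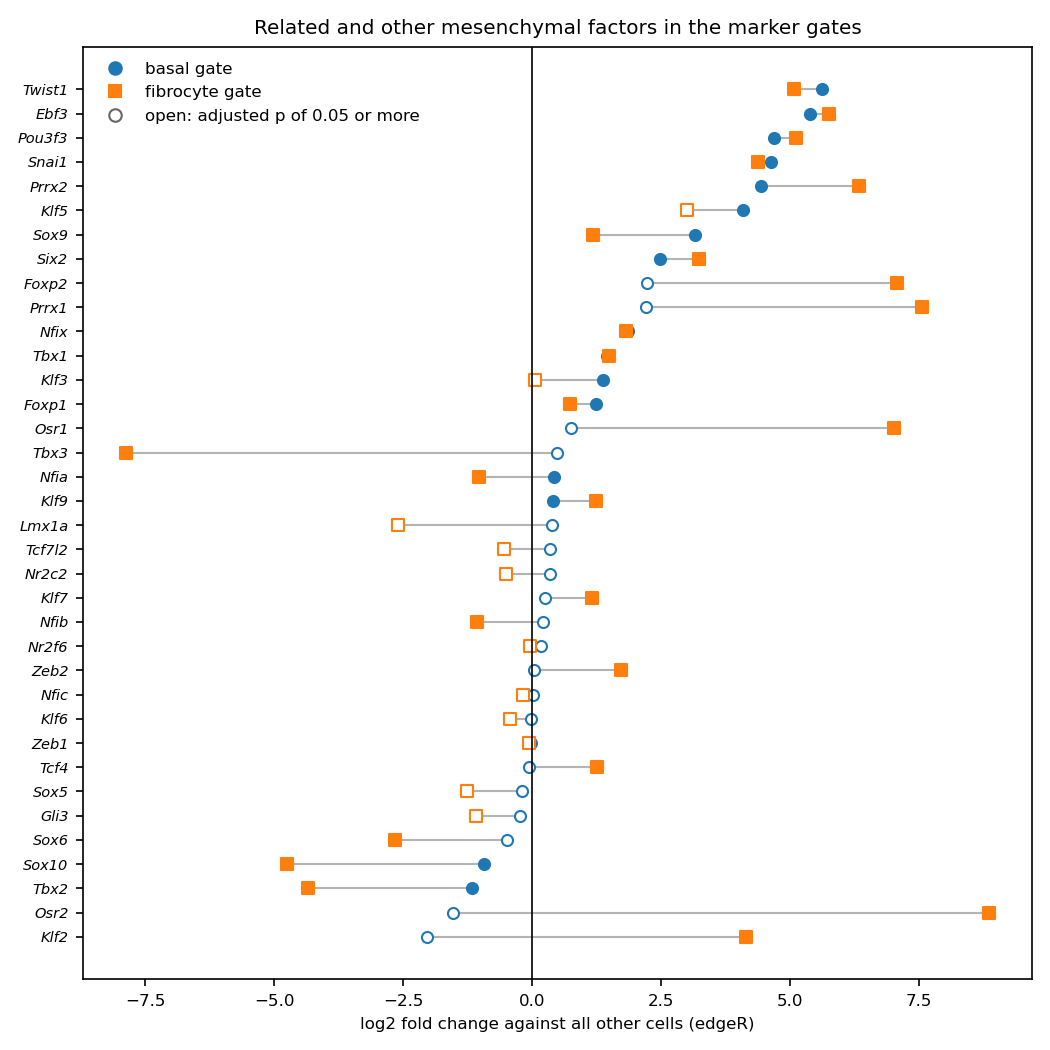
Log2 fold change of tested relatives and other mesenchymal factors in the basal gate (blue circles) and the fibrocyte gate (orange squares) against the cells in neither gate. Filled points have an edgeR adjusted p under 0.05, lines join the values of a gene, and folds of genes with 0 UMIs in a group depend on the fit. Twist1, Ebf3, Pou3f3, Snai1 and Prrx2 rose in both gates, and Prrx1, Foxp2, Osr1 and Osr2 were far higher in the fibrocyte gate. Without capture 3, Twist1 was at -1.31 in the fibrocyte gate, and the rise of Ebf3 there leaned on capture 2.

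Over 32 points (21 sums of a named type and capture in cells and 11 types in nuclei), the genes most like each factor were found by Pearson's r of log2(CPM + 10) among 15060 genes. The points share libraries and depth, and the values are a description. Among the genes nearest to Tbx18 was the noncoding RNA Pantr1 (r = 0.948). Foxc1 was nearest to the glutamate transporter gene Slc1a2 (0.936) and then to Tbx18 (0.918), the highest value among the 45 pairs of the 10 factors, which had a median r of 0.598. Klf4 was nearest to Snai1 (0.883) and the fibronectin gene Fn1 (0.870). Pou3f4 was nearest to Myl9 (0.955) and the fibroblast receptor gene Pdgfra (0.936), Nr2f2 to Plpp3 (0.936) and Nbl1 (0.932), and Nr2f1 to Rarres2 (0.921) and Fxyd6 (0.904). For Sox8 the nearest were Ppp1r1a (0.901) and Slc13a4 (0.893), for Ebf2 Slc38a3 (0.912) and Arhgef28 (0.908), for Ebf1 Cacna1e (0.869) and Tnfrsf19 (0.809), and for Tbx15 Ppfia2 (0.985) and Dcc (0.964). Tbx15 was at 161 CPM in Dcn-led nuclei and at most 11 CPM at any other point, so its values rest largely on 1 point.

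Tbx18 and Foxc1 were the pair of factors with the highest r (0.918), closely followed by Tbx18 and Nr2f2 (0.916). The value compares patterns over the points and not the levels themselves. The promoters of Tbx18 and Foxc1 are shown as the 250 bases before the RefSeq start (GRCm38.p6, chr9:87731261-87731510 on the minus strand and chr13:31806396-31806645 on the plus strand, each 5′ to 3′ in the direction of its gene). Capitals mark matches of the letters searched, of which CCAAT (or ATTGG on the other strand) and the GC box GGGCGG occurred in them.
Tbx18: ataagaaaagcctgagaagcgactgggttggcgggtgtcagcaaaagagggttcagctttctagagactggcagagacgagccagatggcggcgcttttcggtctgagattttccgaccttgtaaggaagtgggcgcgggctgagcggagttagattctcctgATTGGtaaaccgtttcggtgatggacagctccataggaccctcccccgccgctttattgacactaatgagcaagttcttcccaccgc
Foxc1: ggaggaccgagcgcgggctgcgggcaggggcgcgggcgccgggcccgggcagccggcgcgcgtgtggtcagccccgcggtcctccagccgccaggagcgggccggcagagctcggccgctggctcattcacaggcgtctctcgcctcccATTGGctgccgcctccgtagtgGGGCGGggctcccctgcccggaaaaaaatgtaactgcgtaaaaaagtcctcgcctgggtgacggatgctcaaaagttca
Both windows hold 1 CCAAT match, 87 bases before the start of Tbx18 and 101 before that of Foxc1, and Foxc1 also holds a GC box 79 bases before its start. The table held 10 windows for 8 of the factors, with a pair each for Ebf1 and Nr2f1. CCAAT was found in 4 of the 10 windows (those of Foxc1, Nr2f2, Pou3f4 and Tbx18) and in 33.9% of all 32851 promoter windows of the same length, and the GC box in 4 of the 10 (Foxc1, Klf4, Nr2f1 and Sox8) and in 32.7% of windows. Of the letters searched for the factors' own families on both strands, AGGTGTGA (T-box), the palindromic EBF motif, CCACACCC (KLF), AACAATG (SOX), ATGCAAAT (octamer) and AGGTCA (nuclear receptor half-site) were in none of these windows. GTAAACA (forkhead) was in 1 window of Nr2f1 and in 3.17% of all windows. Tbx15 and Ebf2 had no window.

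Of the 10 genes 7 overlap a gene on the other strand, all but Klf4, Pou3f4 and Foxc1. Whether the counting used strand is not given in the sources used here, and whether it kept reads of the partners apart was not tested. The partner of Nr2f2, B130024G19Rik, was at 38.8 CPM in basal-like nuclei and 53.7 CPM in Dcn-led nuclei. The partner of Nr2f1, A830082K12Rik, was at 3.8 CPM in basal-like and 95.4 CPM in Dcn-led nuclei, where Nr2f1 itself had 2 UMIs. That of Sox8, 2810468N07Rik, was at 12.3 CPM in basal-like nuclei and at 0 in Dcn-led nuclei.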

How the data were processed

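The deposited values are raw counts of UMIs per gene and barcode, which the authors made with Cell Ranger 2.0.0 on build mm10 (per the submitters' processing notes); normalization was none. The 10 factors, the gene lists and the markers were chosen with earlier results of these data known. Barcodes with at least 200 genes were kept, and the barcodes with the highest Scrublet scores were removed from each library as doublets, at a share of 0.8% for every 1000 barcodes. Cells and nuclei were clustered separately in Seurat 5.3.0 (R 4.3.3; 2000 variable genes, resolution 0.8) without the listed factors, and mixed clusters were clustered again in scanpy 1.11.5. Clusters were named from fixed markers, whereas the naming rule was revised after clusters were seen: Dcn-led groups have Dcn at least 8 times over other barcodes. Named genes followed the rule of at most 12 and 6 genes called higher in the basal and fibrocyte gate by fold. UMIs summed per capture and gate (at least 5 cells) were fitted in edgeR 4.0.16 (TMM, filterByExpr, robust quasi-likelihood, Benjamini-Hochberg over 7739 genes) with the capture as a block, since the sums of a capture come from the same suspension. The step was tested on simulated data. Gene positions come from the GENCODE annotation of GRCm38. Sox10, Tbx2, Klf2, Klf7, Nfia, Tcf4 and Zeb2 were named after their values were seen. Values of 2 genes that these rules would name are not reported here. Alternatives are given with the limits.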

Additional observations from a re-analysis of the deposited data

Results flagged for a closer look

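The factors Tbx18, Pou3f4 and Foxc1 had basal-like and Dcn-led barcodes in one order in captures 2 and 3 of cells and in the other order in nuclei. Tbx18 was higher in Dcn-led cells of both captures, whereas in nuclei the ratio of basal-like to Dcn-led was 1.27. Pou3f4 was likewise higher in Dcn-led cells, with a ratio of 1.03 in nuclei. Foxc1 was higher in basal-like cells, with a ratio of 0.784 in nuclei. These differences between cells and nuclei were not tested, the nuclear intervals hold 1, and Dcn-led cells and nuclei had different leading genes, which cannot be told apart from the change of method.

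Klf4 was also seen outside the named types, at 93.95 CPM (72.3 to 120) in an unnamed cluster of 225 cells led by Cited1, Rhoc and Mlana, with a median depth of 2481 UMIs. Ebf1 and Foxc1 were at 2.9 CPM there, and intermediate markers summed to 13700 CPM. The 10 immediate-early genes summed to 311 CPM in this cluster, where Klf4 was high, against 17.2 to 66.3 CPM in 4 other unnamed clusters of 320 to 370 cells, where Klf4 was at 3.2 to 4.8 CPM, and their part was not tested. The cluster stood above the marginal-, intermediate- and spindle/root-like levels of Klf4.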

How the results depend on the processing

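The counts of factors at least 2 times higher in basal-like barcodes kept their size with other doublet, gene, resolution and component settings, except that thinning to 1000 UMIs left 3 of 7 in cells (Tbx18, Klf4 and Foxc1). After thinning, Sox8 was in 4, Ebf2 in 6, Pou3f4 in 13 and Ebf1 in 37 basal-like cells over all captures, where the rule asks for 5 UMIs in each capture. The cause was not tested. Leaving out a capture gave 7 to 8. The number of factors shared by basal and fibrocyte nuclei ran from 6 to 8. For the listed factors in the fibrocyte gate, 13 were called higher without capture 2 and 13 without capture 3, a range of 13 to 19 when a capture was left out, and Twist1 there, at 5.07 on the log2 scale with all captures, ran from -1.31 without capture 3 to 5.33 when a capture was left out. Those lower in the basal than in the fibrocyte gate fell to 5 without capture 3, a range of 5 to 9. Without the replicate block, 13 listed factors were higher and 2 lower in the basal gate, 20 and 6 in the fibrocyte gate, and 7 and 9 between the gates. For all 7739 genes these numbers were 777 and 751, 1050 and 1090, and 1101 and 1044. With DESeq2 1.42.0 the numbers for listed factors were 15 and 2, 19 and 4, and 7 and 8. Those for all 7739 genes were 668 and 467, 1032 and 715, and 678 and 910. Levels of the factors moved by more than their spread in 28 of 130 comparisons in cells and by more than their interval in 21 of 100 in nuclei. The alternatives on mixed barcodes and on each fibrocyte group alone were added after the data were seen. With at most 22 cells of the fibrocyte gate in a capture, the number of cells limits the precision on that side.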
